A study of Mus musculus with 12 samples.

Results

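Icam1, Vcam1, Thbs1, F3, Adm and Edn1 are 6 genes through which a vessel wall recruits leukocytes, starts or limits clotting and sets its tone. They were chosen by name among the 19938 genes measured, and each had 1 probe set with a single symbol on the array. The data are log2 expression values on 12 liver arrays in 3 groups of 4, all from male mice of the background strain C57Bl/6 (C57Bl6/J in the source names). The first group was S534A mice given lipopolysaccharide (LPS) at 1 µg/kg, the second wild-type (WT) mice given the same dose, and the third WT mice left untreated. The titles of the untreated arrays follow another scheme than those of the LPS arrays, and no group was given vehicle alone. An effect of LPS therefore cannot be told apart from one of injection or of separate handling. S534A is a knocked-in serine-to-alanine change in the NF-kB subunit p65 (gene Rela). It was introduced in PTL1 embryonic stem cells, backcrossed 5 times to C57Bl6/J and bred to homozygosity. Neither the age of the mice nor the time from LPS to collection is stated in the labels. With no untreated S534A group here, a genotype effect on the untreated liver and an effect on the LPS response cannot be told apart. The labels do not say that each array came from a separate animal, so p-values reflect only how far these samples spread, which may be technical.

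LPS is a bacterial cell-wall product that activates NF-kB, in endothelial cells among others, by way of Toll-like receptor 4. ICAM-1 binds the leukocyte integrins LFA-1 and Mac-1, and VCAM-1 binds the integrin VLA-4. Together with E-selectin and P-selectin they slow leukocytes and hold them to the vessel wall. Tissue factor, the product of F3, starts the extrinsic clotting pathway with factor VII. Thrombospondin-1, the product of Thbs1, is a matrix and platelet glycoprotein that binds CD47 and CD36 and limits vessel growth. Adrenomedullin relaxes vessels and tightens the endothelial barrier through the receptor CALCRL with RAMP2 or RAMP3, whereas endothelin-1, the product of Edn1, constricts vessels and contracts stellate cells in the liver sinusoid.

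The promoters of 3 of these genes are shown because they behaved in different ways: Icam1 had the largest rise after LPS of the 6, F3 fell, and Adm differed between the genotypes. The RefSeq table used here (build GRCm38.p6) held windows of 300 bases, 250 before and 50 after the gene's start, for Icam1, F3, Adm and Edn1. Capitals mark matches, on either strand, to any of 4 motifs: GGGNNNNNCC and GGNNNTTCC for NF-kB, TGANTCA for AP-1 and ACGTG of the hypoxia response element. GGNNNTTCC was added after the windows had been seen.
Icam1, chr9:21015690-21015989, plus strand: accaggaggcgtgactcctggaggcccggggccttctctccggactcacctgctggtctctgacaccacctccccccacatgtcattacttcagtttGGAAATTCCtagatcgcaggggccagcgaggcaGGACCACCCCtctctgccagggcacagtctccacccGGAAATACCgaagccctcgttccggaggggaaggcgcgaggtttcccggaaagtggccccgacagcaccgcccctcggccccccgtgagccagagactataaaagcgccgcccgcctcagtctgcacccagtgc
F3, chr3:121723287-121723586, plus strand: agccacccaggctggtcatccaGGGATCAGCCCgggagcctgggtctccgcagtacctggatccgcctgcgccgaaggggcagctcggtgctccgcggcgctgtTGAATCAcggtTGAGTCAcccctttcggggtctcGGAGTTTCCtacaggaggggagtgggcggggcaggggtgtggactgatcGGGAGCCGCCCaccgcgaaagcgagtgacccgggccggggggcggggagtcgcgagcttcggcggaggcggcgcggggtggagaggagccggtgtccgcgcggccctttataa
Adm, chr7:110627407-110627706, plus strand: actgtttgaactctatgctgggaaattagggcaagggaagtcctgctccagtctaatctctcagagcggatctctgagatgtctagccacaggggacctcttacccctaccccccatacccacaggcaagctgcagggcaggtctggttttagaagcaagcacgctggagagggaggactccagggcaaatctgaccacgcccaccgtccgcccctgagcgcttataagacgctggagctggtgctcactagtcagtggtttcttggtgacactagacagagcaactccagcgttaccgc

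The Icam1 window held GGAAATTCC at bases 98 to 106, which matches GGNNNTTCC on both strands, a second match to that motif on the minus strand at bases 167 to 175, and 1 match to GGGNNNNNCC at bases 131 to 140. The F3 window held TGAATCA and TGAGTCA, both matches to the AP-1 motif, 1 match to GGNNNTTCC at bases 139 to 147, and 2 pairs of overlapping matches to GGGNNNNNCC. The Adm window held none of the 4 motifs, and the Edn1 window, not printed, held only ACGTG, on the minus strand after the gene's start. Among 32851 windows of the table, GGGNNNNNCC was found in 50.8%, GGNNNTTCC in 18.5%, TGANTCA in 7.81% and ACGTG in 19.6%. A match is a description of the letters, and no match says only that these letters are not in the window.

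Some arrays stood apart, and results were computed with and without them. WT untreated replicates 2 and 4 read 11.19 and 11.39 for the clock output gene Dbp, against 8.14 and 7.59 on replicates 1 and 3, and the clock gene Per3 divided them in the same way (8.71 and 8.61 against 6.50 and 6.37). S534A LPS replicate 3 and WT LPS replicates 2 and 3 carried exocrine pancreas transcripts: Ctrb1, a chymotrypsinogen gene, read 11.49, 10.72 and 8.22 on them, and between 6.36 and 7.49 on the other 9 arrays. Array medians lay between 6.15 and 6.32, and Edn1 and Adm read below that in untreated livers, where RMA values understate differences. Thbs1 read 6.08 to 6.32 in untreated livers, about the level of the medians, so its rise may be understated too. With 4 arrays a group, array number limits precision. The liver label was checked on the albumin gene Alb, which averaged 14.04 in S534A LPS, 14.02 in WT LPS and 14.00 in WT untreated livers. Apoa1, the apolipoprotein A-I gene, averaged 13.88 in S534A LPS, 13.87 in WT LPS and 13.94 in WT untreated livers. The brightest of 11 endothelial markers were Cdh5 and Egfl7. Cdh5, the endothelial cadherin gene, averaged 10.03 in S534A LPS, 9.98 in WT LPS and 9.84 in WT untreated livers, and Egfl7 averaged 9.17 in S534A LPS, 8.97 in WT LPS and 9.24 in WT untreated livers. Others on that list fell further in LPS livers, as given with the marker lists.

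In both LPS groups, 5 of the 6 genes were higher and F3 was lower than in WT untreated livers. Rises and falls named for S534A LPS livers are against WT untreated livers, so they hold LPS and genotype together. In WT LPS livers against WT untreated livers, 5 were called higher and 1 lower at a limma adjusted p under 0.05, against 9.34% of all genes called higher and 15.6% called lower. In S534A LPS livers against the same untreated livers all 6 were called, again 5 higher and F3 lower, against 26.9% of all genes called in either direction. These comparisons share the untreated arrays and are not independent. Between S534A LPS and WT LPS livers only Adm was called, in a comparison that called 0.166% of all genes higher. The median difference of the 6 genes was 1.42 in WT LPS against WT untreated livers, 1.72 in S534A LPS against WT untreated livers and 0.12 in S534A LPS against WT LPS livers, beside 0.02, 0.03 and 0.01 over all genes.

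**Figure D1:**
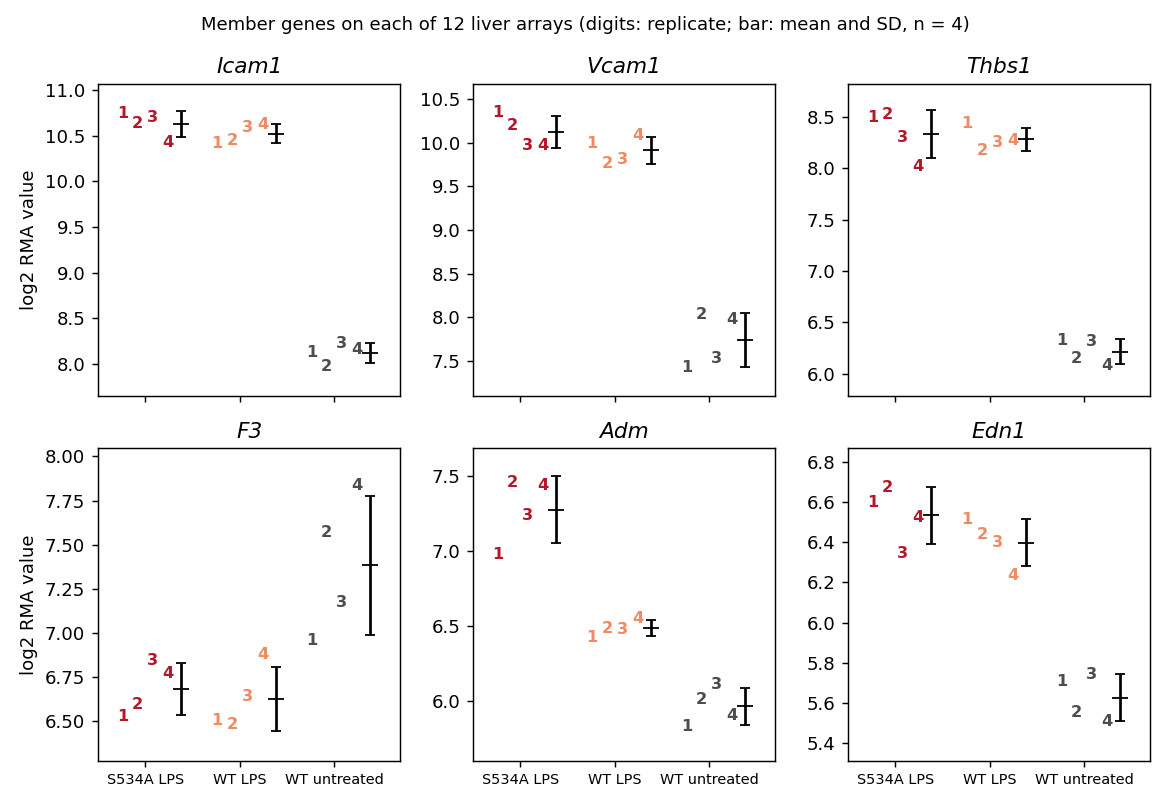
Log2 RMA values (y axis, its own range in each panel) of the 6 genes on the arrays of the 3 groups (x axis); digits are replicate numbers and the bar is the mean with its SD (n = 4). F3 is highest in untreated livers, and the S534A LPS arrays lie above all WT LPS arrays for Adm alone.

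Among the adhesion molecules, Icam1 rose most. Its probe set (10583519) read 10.75, 10.63, 10.70 and 10.43 in S534A LPS livers, 10.41, 10.45, 10.59 and 10.63 in WT LPS livers, and 8.12, 7.97, 8.22 and 8.16 in WT untreated livers. All 8 LPS arrays lay above all untreated arrays, and the LPS groups overlapped. Icam1 was 5.29-fold higher in WT LPS than in WT untreated livers (log2 difference 2.40 ± 0.08, SE; limma adjusted p = 3.17e-10), the 86th largest rise of all genes. The rise in S534A LPS over WT untreated livers was 5.69-fold (2.51 ± 0.08). The difference between S534A LPS and WT LPS livers was 0.10 (95% interval -0.08 to 0.29; adjusted p = 1). Without the arrays with pancreas transcripts the WT LPS difference from untreated livers was 2.40, and without untreated replicates 2 and 4, or 1 and 3, it was 2.35 and 2.46.

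Vcam1 (probe set 10501608) read 10.35, 10.19, 9.97 and 9.97 in S534A LPS livers, 9.99, 9.76, 9.81 and 10.09 in WT LPS livers, and 7.43, 8.04, 7.52 and 7.97 in WT untreated livers. The LPS groups overlapped and both lay above all untreated arrays. Vcam1 was 4.51-fold higher in WT LPS than in WT untreated livers (2.17 ± 0.14; adjusted p = 1.86e-07) and 5.21-fold higher in S534A LPS than in WT untreated livers (2.38 ± 0.14). S534A LPS and WT LPS livers differed by 0.21 (95% interval -0.10 to 0.51; adjusted p = 1). Among the untreated livers, the arrays high in Dbp were also those higher in Vcam1, so the rise in WT LPS livers read 2.44 without replicates 2 and 4 and 1.91 without replicates 1 and 3. Without the arrays with pancreas transcripts it read 2.30.

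Thbs1 (probe set 10474700) read 8.50, 8.53, 8.30 and 8.02 in S534A LPS livers, 8.44, 8.18, 8.25 and 8.27 in WT LPS livers, and 6.32, 6.14, 6.31 and 6.08 in WT untreated livers. Every LPS array exceeded every untreated array by more than the spread within a group, and the WT LPS values lay inside the S534A LPS range. Thbs1 was 4.20-fold higher in WT LPS than in WT untreated livers (2.07 ± 0.11; adjusted p = 2.02e-08) and 4.37-fold higher in S534A LPS than in WT untreated livers (2.13 ± 0.11). The difference between S534A LPS and WT LPS livers was 0.05 (95% interval -0.18 to 0.29; adjusted p = 1). The rise in WT LPS livers read 2.14 without the arrays with pancreas transcripts, 1.97 without untreated replicates 2 and 4, and 2.17 without replicates 1 and 3. Replicates 2 and 4, the untreated arrays high in Dbp, were the lowest in Thbs1.

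F3, the gene of tissue factor, moved the other way. Its probe set (10495675) read 6.53, 6.60, 6.84 and 6.77 in S534A LPS livers, 6.50, 6.48, 6.64 and 6.88 in WT LPS livers, and 6.96, 7.57, 7.17 and 7.84 in WT untreated livers. All LPS arrays were below all untreated arrays, but the highest LPS array and the lowest untreated array were close. F3 fell by 0.76 ± 0.16 in WT LPS against WT untreated livers (1.69-fold; adjusted p = 0.00441) and by 0.70 ± 0.16 in S534A LPS against WT untreated livers (1.62-fold; adjusted p = 0.00645). The difference between S534A LPS and WT LPS livers was 0.06 (95% interval -0.30 to 0.42; adjusted p = 1).

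The size of the F3 fall depended on which untreated livers it was set against. Without untreated replicates 2 and 4, the arrays high in Dbp, the difference was -0.44 in WT LPS livers (adjusted p = 0.0302) and -0.38 in S534A LPS livers (adjusted p = 0.0532). Without replicates 1 and 3 F3 differed by -1.02 in the S534A LPS group and by -1.08 in the WT LPS group. Without the arrays with pancreas transcripts the fall in WT LPS livers no longer passed (-0.69 ± 0.22; adjusted p = 0.0622), and that in S534A LPS livers did (-0.75; adjusted p = 0.0186). The part of the clock state of the livers in these values was not tested.

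**Figure D2:**
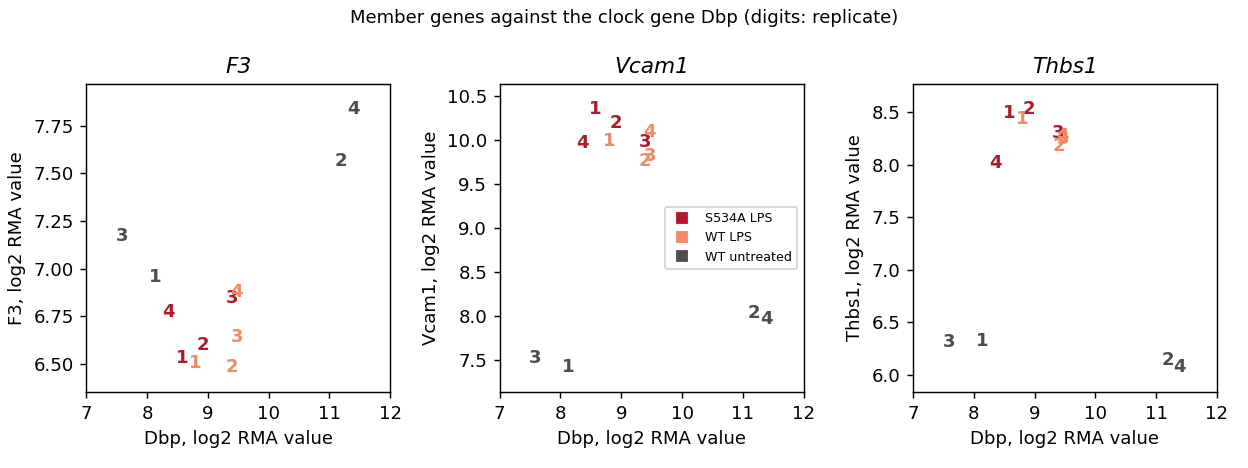
Log2 RMA values of F3, Vcam1 and Thbs1 (y axes) against that of the clock gene Dbp (x axis) on the 12 arrays; digits are replicate numbers and colours the groups. Untreated replicates 2 and 4, right of Dbp 11, are the highest of all arrays in F3 and the highest untreated arrays in Vcam1. In Thbs1 they are the lowest of all arrays.

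Adm was the only member that set S534A LPS apart from WT LPS livers. Its probe set (10556297) read 6.97, 7.45, 7.23 and 7.44 in S534A LPS livers, 6.42, 6.48, 6.47 and 6.55 in WT LPS livers, and 5.83, 6.01, 6.11 and 5.90 in WT untreated livers. The groups did not overlap, and the order was S534A LPS, then WT LPS, then untreated. Adm was 1.73-fold higher in S534A LPS than in WT LPS livers (0.79 ± 0.10, 95% interval 0.57 to 1.01; limma adjusted p = 0.00719; higher in 4 of 4 arrays), the 30th largest positive difference of all genes. It was 1.43-fold higher in WT LPS than in WT untreated livers (0.52 ± 0.10; adjusted p = 0.00195) and 2.48-fold higher in S534A LPS than in WT untreated livers (1.31 ± 0.10; adjusted p = 6.61e-07). The WT LPS arrays were close together (SD 0.05) and the S534A LPS arrays wider (SD 0.22).

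The Adm difference between the genotypes was 0.80 ± 0.15 without the arrays with pancreas transcripts, as large as with them, but did not pass with the 5 LPS arrays left (adjusted p = 0.33). Of all 19938 genes, that fit called 1 higher and 0 lower between the LPS groups, so the loss was not particular to Adm. With each array left out in turn it stayed between 0.73 and 0.89 (adjusted p up to 0.0426). The mean of 11 neutrophil marker genes had the same order of groups. It lay between 7.68 and 7.92 on the S534A LPS arrays and between 7.33 and 7.56 on the WT LPS arrays. On the untreated arrays it lay between 5.81 and 6.11. That is an order of groups, not of single arrays within a group. Of these 11, 2 passed between the LPS groups, where 0.166% of all genes were called higher. S100a9 (0.52 ± 0.09; adjusted p = 0.0385) and Retnlg (0.68 ± 0.10; adjusted p = 0.0158) were higher in S534A LPS than in WT LPS livers. The median difference of the 11 was 0.45, against 0.01 for all genes. Lcn2, the brightest of the 11, did not pass between the LPS groups (-0.05 ± 0.31; adjusted p = 1). It read 13.40 to 13.51 in WT LPS livers, where S100a9 read 8.40 to 8.53. Whether neutrophils carried Lcn2 in these livers was not tested, and it enters the mean of the 11. The part of these markers in the Adm difference was not tested. In whole liver, more cells of a type and more RNA per cell cannot be told apart.

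Edn1 (probe set 10404783) read 6.60, 6.67, 6.34 and 6.52 in S534A LPS livers, 6.51, 6.44, 6.40 and 6.24 in WT LPS livers, and 5.71, 5.55, 5.74 and 5.51 in WT untreated livers. LPS arrays were all above untreated arrays and the LPS groups overlapped. Edn1 was 1.71-fold higher in WT LPS than in WT untreated livers (0.77 ± 0.09; adjusted p = 3.12e-05) and 1.87-fold higher in S534A LPS than in WT untreated livers (0.91 ± 0.09; adjusted p = 5.65e-06). S534A LPS and WT LPS livers differed by 0.14 (95% interval -0.05 to 0.33; adjusted p = 1). The rise in WT LPS livers read 0.75 without the arrays with pancreas transcripts, 0.67 without untreated replicates 2 and 4, and 0.87 without replicates 1 and 3. Replicates 2 and 4, the untreated arrays high in Dbp, were the lowest in Edn1.

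**Figure D3:**
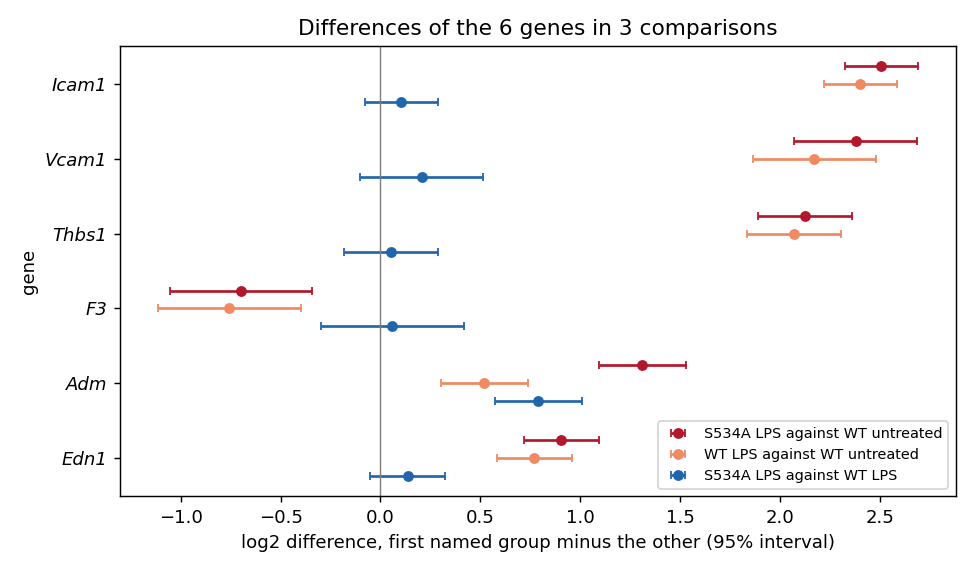
Log2 differences (x axis) with 95% intervals of the 6 genes (y axis) in S534A LPS against WT untreated, WT LPS against WT untreated and S534A LPS against WT LPS livers. Between the LPS groups the interval of Adm (0.57 to 1.01) excludes 0 and those of the other 5 genes include it.

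Likeness between genes was measured as the root-mean-square difference over the 12 arrays after each gene's mean had been subtracted. It was not scaled, so it follows the size of a change as well as its direction. Icam1, Vcam1 and Thbs1 were within 0.21 to 0.25 of each other, Adm and Edn1 0.32 apart, and F3 at least 0.81 from every other member. Over all genes, Icam1 was most like Irgm1, an interferon-induced GTPase gene (0.13), Nfkbie, which encodes the inhibitor IkB-epsilon (0.13), and Nfkb2, which encodes the NF-kB subunit p100 (0.14). Thbs1 was also most like Nfkb2 (0.14), followed by Parp9 and the transglutaminase gene Tgm2 (0.15 each). Vcam1 was most like Snx10, Tasor2 and the inflammatory caspase gene Casp4 (0.16 to 0.17).

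The genes most like the other members were of other kinds. F3 was most like Ldlrad4 (0.10), Gba2, which encodes a glucosylceramidase (0.10), and the transcription factor gene Onecut2 (0.11). Edn1 was most like Vars, which encodes valyl-tRNA synthetase (0.09), Eif6, a translation initiation factor gene (0.09), and Rrbp1 (0.11). Adm was most like Bcl6b, a transcriptional repressor gene (0.18), Sema4c (0.19) and Socs1, an inhibitor of cytokine signalling (0.20). The LPS arrays of both genotypes entered this measure, so a difference like that of Adm is built into the choice of its neighbours. As a description, S534A LPS minus WT LPS was 0.70 for Bcl6b, 0.42 for Sema4c and 0.86 for Socs1.

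The partners of the 6 genes were followed in 7 lists with 84 measured genes, of which 33 were called in WT LPS against WT untreated livers, 36 in S534A LPS against WT untreated livers and 0 in S534A LPS against WT LPS livers (limma; 7 at an unadjusted p under 0.05, and 2 with array weights). Over all genes, 9.34% were called higher and 15.6% lower in WT LPS livers, and 26.9% were called in S534A LPS livers, each against WT untreated livers. Between the LPS groups 33 of 19938 genes were called higher and 1 lower, so a count of 0 among 84 genes says nothing particular to the partners. Values in the account of the lists are WT LPS minus WT untreated unless stated. Selp, F2rl1, Calca, Ednra and Ptgs1 were not analysed here.

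Among 13 other vascular adhesion molecules, 5 rose and 2 fell in WT LPS livers, against 9.34% of all genes called higher and 15.6% lower. Sele, which encodes E-selectin, averaged 7.15 ± 0.25 in S534A LPS livers, 6.69 ± 0.03 in WT LPS livers and 6.34 ± 0.17 in WT untreated livers (SD, n = 4 each). It rose in S534A LPS livers against untreated ones (0.81 ± 0.11; adjusted p = 0.000156), whereas its rise in WT LPS livers was small (0.35 ± 0.11; adjusted p = 0.0401) and failed in 8 of 12 fits that left out a single array (adjusted p up to 0.103). The Sele values of the LPS groups did not overlap, S534A being higher, but the difference did not pass (0.46 ± 0.11; adjusted p = 0.194). Cd44, a hyaluronan receptor gene, rose by 1.07 ± 0.14 and F11r, which encodes the junctional molecule JAM-A, by 0.59 ± 0.08. Mcam (0.38) and Esam (0.35) rose too, and Cd99l2 (-0.70) and Cd34 (-0.30) fell. The median of the list was 0.25, against 0.02 for all genes.

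Of 10 leukocyte genes for the integrins and ligands that bind these molecules, 5 rose and 0 fell in WT LPS livers. Over all genes, 9.34% were called higher and 15.6% lower there. Itgal (0.63 ± 0.12) and Itgb2 (0.80 ± 0.11) encode the chains of LFA-1, the ICAM-1 receptor, and Itgam (0.63 ± 0.09) the Mac-1 chain. Itga4, a chain of the VCAM-1 receptor VLA-4, rose by 0.39 ± 0.07, and Selplg, which encodes the selectin ligand PSGL-1, by 0.47 ± 0.11 (adjusted p = 0.0790 without untreated replicates 2 and 4). Itgb1, for the other chain of VLA-4, was not called (-0.07). Nor were Itga9 (-0.20), Spn (0.16), Itgax (0.10) and Itgb7 (0.03). Neutrophil and monocyte markers rose beside them: 9 of 11 neutrophil markers and 3 of 5 monocyte markers were called higher. The mean of the monocyte markers lay between 7.74 and 7.89 on S534A LPS arrays, 7.56 and 7.98 on WT LPS arrays, and 7.03 and 7.13 on untreated arrays. Fn1, the brightest of them, already read 12.83 to 13.02 on untreated arrays and was not called (0.01). Which cells carried Fn1 was not tested. The part of cell numbers in these rises was not tested.

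**Figure D4:**
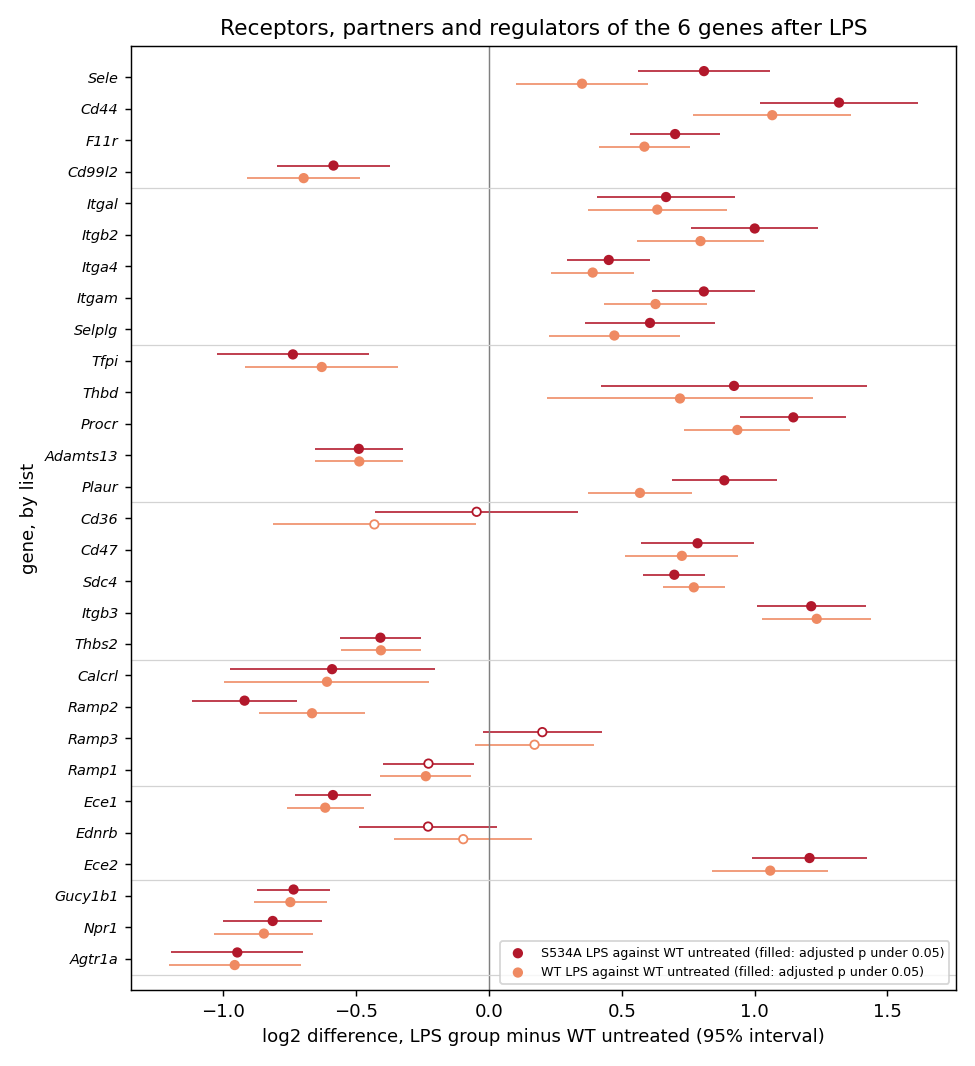
Log2 differences (x axis) with 95% intervals of the named partner genes (y axis; grey lines divide the 7 lists), for S534A LPS and WT LPS livers, each against WT untreated livers; filled points passed at an adjusted p under 0.05. Apart from fixed partners, only genes called in WT LPS against WT untreated livers are shown. The leukocyte integrin genes shown (Itgal, Itgb2, Itga4 and Itgam) lie right of 0 in both, and Calcrl, Ramp2 and Ece1 left of 0.

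Of 17 genes with which the vessel wall controls clotting and fibrinolysis, 3 rose and 2 fell in WT LPS livers, where 9.34% of all genes were called higher and 15.6% lower. Procr, the protein C receptor gene, averaged 8.03 ± 0.07 in S534A LPS livers, 7.82 ± 0.06 in WT LPS livers and 6.89 ± 0.22 in WT untreated livers, a rise of 0.94 ± 0.09 in WT LPS livers (adjusted p = 9.53e-06). Plaur, the urokinase receptor gene, rose by 0.57 ± 0.09. Thbd, which encodes the anticoagulant thrombomodulin, rose by 0.72 ± 0.23 (adjusted p = 0.0372), a call lost in 7 of 12 fits that left out a single array (adjusted p up to 0.104). Tfpi, which encodes the inhibitor of the tissue factor pathway, fell with F3, by 0.63 ± 0.13 (adjusted p = 0.00359; 0.067 without the arrays with pancreas transcripts). Adamts13, the protease gene for von Willebrand factor, fell by 0.49 ± 0.08.

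Of 12 genes of thrombospondins and thrombospondin-1 receptors, 3 rose and 1 fell in WT LPS livers, against 9.34% and 15.6% of all genes. Itgb3, which encodes integrin beta-3, rose by 1.23 ± 0.09, Sdc4, a heparan sulphate proteoglycan gene, by 0.77 ± 0.05 and Cd47 by 0.73 ± 0.10. Thbs2, a close relative of Thbs1, fell by 0.41 ± 0.07 while Thbs1 rose. Cd36 did not pass in WT LPS livers (-0.43 ± 0.18; adjusted p = 0.0971). It passed without WT LPS replicate 1 (-0.60; adjusted p = 0.00977) and with array weights (-0.39; adjusted p = 0.0366), and read -0.24 without WT LPS replicate 2 and -0.17 without the arrays with pancreas transcripts.

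Ramp2, whose product forms an adrenomedullin receptor with CALCRL, was lower in both LPS groups than in WT untreated livers. Of 10 genes of related peptides and receptors, 0 rose and 3 fell in WT LPS livers, against 9.34% and 15.6% of all genes. In S534A LPS against WT untreated livers 0 rose and 2 fell, where 26.9% of all genes were called in either direction. The median difference of the list was -0.07 in WT LPS and 0.04 in S534A LPS livers. Ramp2 averaged 7.09 ± 0.15 in S534A LPS livers, 7.34 ± 0.15 in WT LPS livers and 8.01 ± 0.10 in WT untreated livers, and fell by 0.67 ± 0.09 in WT LPS livers (adjusted p = 0.000164) and by 0.92 ± 0.09 in S534A LPS livers (adjusted p = 7.92e-06). Calcrl fell by 0.61 ± 0.18 in WT LPS livers (adjusted p = 0.0236), a call lost without untreated replicate 1, 3 or 4 (adjusted p up to 0.0619) and without the arrays with pancreas transcripts (-0.39). Its fall in S534A LPS livers (-0.59; adjusted p = 0.0257) was lost in 5 of 12 fits that left out a single array (adjusted p up to 0.0760). Ramp1 fell by 0.24 ± 0.08 (adjusted p = 0.0444), a call lost in 10 of those 12 fits (adjusted p up to 0.125), and Ramp3 did not pass (0.17 ± 0.10; adjusted p = 0.257).

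Of 7 endothelin genes, 1 rose and 1 fell in WT LPS livers, where 9.34% of all genes were called higher and 15.6% lower. The converting enzymes went in opposite directions. Ece1 fell by 0.62 ± 0.07 (adjusted p = 2.15e-05) and Ece2 rose by 1.06 ± 0.10 (adjusted p = 6.87e-06), or by 0.56 with the mean of its probe sets. The receptor gene Ednrb did not pass (-0.10 ± 0.12; adjusted p = 0.601). Beside the same shares of all genes, 2 of 15 other vasoactive genes rose and 5 fell. Nos2, the inducible nitric oxide synthase gene, rose by 1.51, and Hmox1 by 0.57. Agtr1a, the angiotensin II receptor gene, fell by 0.96 ± 0.11, Npr1, a natriuretic peptide receptor gene, by 0.85 ± 0.09, and Gucy1b1, a chain of the nitric oxide receptor guanylate cyclase, by 0.75 ± 0.06, along with Gucy1a1 (-0.95) and Tbxas1 (-0.38).

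Markers of liver endothelium and of Kupffer cells, the resident macrophages, moved in both directions, with more called lower than higher. Over all genes, too, more were called lower (15.6%) than higher (9.34%) in WT LPS livers. Of 11 general endothelial markers, 2 rose and 6 fell in WT LPS livers (median -0.27, against 0.02 for all genes), and their mean lay between 7.88 and 8.05 on S534A LPS arrays, 7.86 and 8.19 on WT LPS arrays, and 8.40 and 8.53 on untreated arrays. The genes of the endothelial receptors VEGFR2 and TIE2 fell furthest, Kdr by 1.59 ± 0.13 and Tek by 1.38 ± 0.12, and Emcn fell by 1.07, Erg by 0.56, Tie1 by 0.42 and Egfl7 by 0.27. Robo4 (0.50) and Esam (0.35) rose. Of 9 sinusoidal endothelial markers, 1 rose and 5 fell (median -0.46), among them Clec4g (-0.64 ± 0.14) and Dnase1l3 (-0.46 ± 0.11), and the one that rose was Lyve1 (1.32 ± 0.15). Of 8 Kupffer cell markers, 1 rose and 5 fell (median -0.69), among them Vsig4 (-1.25 ± 0.21) and Clec4f (-0.76 ± 0.11), and the one that rose was Marco (1.40 ± 0.14). Which cells carried the 6 transcripts was not tested.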

How the data were processed

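Liver RNA was measured on 12 Affymetrix whole-transcript arrays, 4 per group. The authors deposited log2 values from RMA, as the submitters' processing notes state without a version. They were used without further normalisation or filter. Of 35556 probe sets, 21789 carried 1 gene symbol, 21698 of them updated through Entrez identifiers. The brightest probe set stood for a gene with several, which left 19938 genes. Each comparison came from 1 model over all arrays, fitted in R 4.3.3 with the package limma 3.58.1 (lmFit, eBayes, 9 residual and 3.54 prior degrees of freedom), two-sided, with Benjamini-Hochberg adjustment over all genes and a threshold of 0.05, and the procedure was tested on simulated data. The members and lists were chosen with earlier results of these data known, and so were the main alternatives. The text names all 6 members, fixed receptors and partners, up to 3 further called genes per list by smallest p, the 2 brightest genes of a marker list whose genes are named, and the 3 genes most like each member; other genes, such as Retnlg and the remaining endothelial markers, named to complete a small count, were chosen after their values were seen. Alternatives left out arrays, added a replicate block or array weights, and changed the scaling, the filter on dim genes or the choice of probe set. The numbers were not taken as pairs, because no label says that same-numbered arrays share an animal, litter or day. Deviations of same-numbered arrays from their group means correlated at -0.27 to 0.21 over 12 pairs, which cannot exclude pairing.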

Additional observations from a re-analysis of the deposited data

Results flagged for a closer look

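In 4 of 105 groups of 4 arrays, over 35 genes, 1 array stood far from the other 3, with a gap to its neighbour, as a share of the group's range, above Dixon's 95% critical value; chance gives about 5% of groups. None was a value of the 6 genes. Itgb2 read 8.77 on S534A LPS replicate 4, against 8.63 to 8.64 on the other S534A LPS arrays. Itgal read 8.26 on WT untreated replicate 4, against 7.81 to 7.85 on the other untreated arrays. Thbd read 7.15 on the same array, against 6.62 to 6.70. Tfpi read 6.99 on WT untreated replicate 2, against 7.48 to 7.56.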

How the results depend on the processing

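Of 429 recomputed differences of the 6 genes under 24 alternatives, 426 kept their side of the threshold and 3 called ones did not pass. Without the arrays with pancreas transcripts, F3 did not pass in WT LPS against WT untreated livers (-0.69). Nor did Adm in S534A LPS against WT LPS livers (0.80), which leaves 0 of 6 genes called between the LPS groups. That fit called 1 of 19938 genes higher and 0 lower between these groups, against 33 and 1 in the main fit. A count of 0 among 6 therefore says nothing particular to these genes. The cause was not tested, and fewer arrays were fitted. Without WT untreated replicates 2 and 4, an alternative chosen after seeing the data, F3 read -0.38 in S534A LPS against WT untreated livers. With the replicate block the Adm difference between the genotypes was 0.79 (adjusted p = 0.0147), and the block changed no call of the 6 genes. Partner genes called in S534A LPS against WT LPS livers numbered 0 to 1 with single arrays left out, and 2 with array weights. Of 2082 recomputed differences of other named genes, 61 lost and 11 gained a call and 0 reversed. Edn1 was removed by the filter on dim genes. Signal near the floor of the array limits Edn1 and Adm in untreated livers, and Thbs1 lay about the array medians there. Among the partners, Gucy1b1 in LPS livers, Itgam in untreated livers and Ramp3 in all groups read below the array medians.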

Other observations

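In WT LPS against WT untreated livers, 9.34% of all genes were called higher and 15.6% lower. Of 9 hepatocyte markers, 0 rose and 2 fell in that comparison, and of 10 stellate cell and fibroblast markers 0 rose and 3 fell. Of 7 platelet and megakaryocyte markers, 1 rose (Ppbp) and 1 fell (Clec1b, -0.86). Whether platelets carried Clec1b in these livers was not tested. Ppbp, which encodes pro-platelet basic protein, averaged 8.30 ± 0.09 in S534A LPS livers, 8.01 ± 0.32 in WT LPS livers and 7.40 ± 0.22 in WT untreated livers (SD, n = 4 each). Treml1, the other of the 2 brightest on that list, averaged 7.12 in S534A LPS livers, 7.13 in WT LPS livers and 7.11 in WT untreated livers. Of 13 clock genes, 1 rose and 2 fell in WT LPS against WT untreated livers.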
